A study of Mus musculus with 18 samples.

Results

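Open chromatin of WT mouse liver was compared between the fasted and the refed state by ATAC-seq, in which a transposase inserts sequencing adapters where DNA is not packed in nucleosomes. The members were chosen by their labels alone: 4 of the 18 samples of the series, that is 2 fasted and 2 refed livers, each from a separate mouse. All 4 mice were wildtype C57BL/6J littermates of JMJD1C-LKO mice, carried no transgene or deletion named in the labels, had been kept on chow for 6 to 8 weeks, and were about 12 weeks old unless stated otherwise in the study's methods. The fasted mice had been without food overnight. The refed mice had also been fasted overnight and were then given a high-carbohydrate diet, for 6 h per the labels, while the general methods of the study give 8 to 16 h of feeding. The label on treatment reads the same for every sample, so the state of each liver rests on the letter in its title and on the peak names in its file. Each liver contributed a list of summits, the single bases at which accessible regions peaked, with a score equal to −log10 of the q-value at that base. The lists held 5220 and 7632 summits when fasted and 5027 and 3119 when refed, 20998 in all. Neither read depth nor reads over a region were in the lists, so a gene with no summit had none that was called, which does not show that its promoter was closed. Whole liver was the source, so fewer nuclei of a cell type and less signal per nucleus cannot be told apart.

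In the liver, feeding raises insulin, which activates the kinases AKT and mTOR and, through SREBP-1c, USF and ChREBP, turns on the genes that build fatty acids and triglycerides from dietary carbohydrate. Fasting raises glucagon and activates CREB, FOXO1 and PPARα, which drive gluconeogenesis, fatty acid oxidation and ketogenesis. Sterol synthesis follows SREBP-2, a relative of SREBP-1c that answers to the cholesterol content of the endoplasmic reticulum. Active promoters are commonly free of nucleosomes just upstream of the transcription start site (TSS).

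One library stood apart. Repeat-masked sequence held 78.0% of the summits of fasted replicate 2 (more than 50% of the bases within 100 bp were masked), against 18.9% in fasted replicate 1 and 41.4% and 43.0% in the refed livers. It also had the lowest median score, 3.88, against 5.80, 4.96 and 5.64. Outside repeats the lists held 4231 and 1682 summits when fasted and 2944 and 1777 when refed. Results are therefore given for all summits and for the strongest 1682 summits outside repeats of each liver, the number that fasted replicate 2 has. The 100 strongest summits of each list were alike in kind in the 4 livers: 61 to 66 of them lay in repeats, 16 or 17 shared a run of 25 bases with the mitochondrial genome, and 1 to 5 lay within 1000 bp of a TSS.

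**Figure D1:**
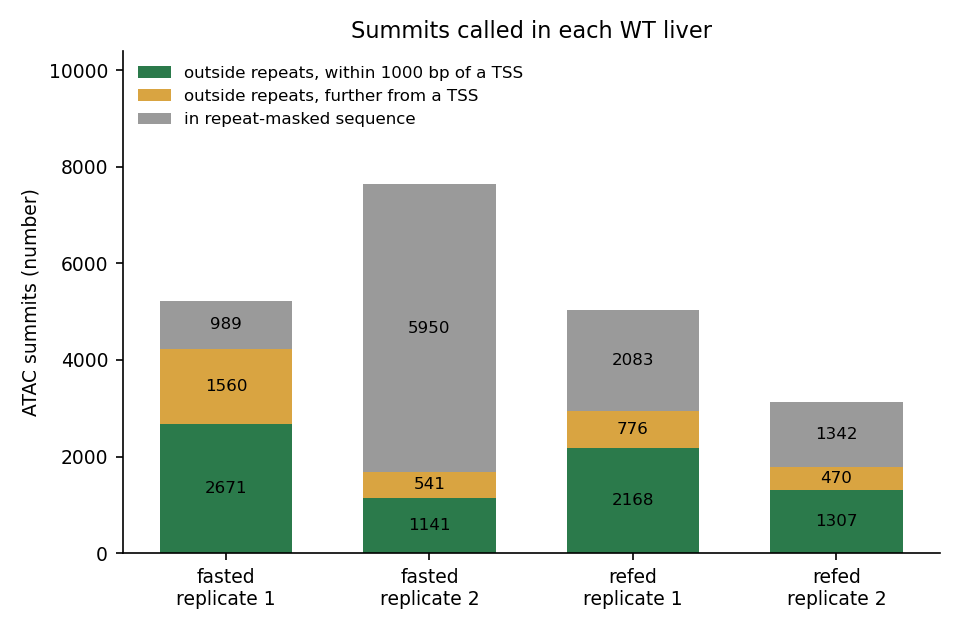
Number of ATAC summits in each of the 4 WT livers (y axis, linear from 0), divided into summits outside repeats within 1000 bp of a TSS (green), summits outside repeats further away (yellow) and summits in repeat-masked sequence (grey). Fasted replicate 2 holds 5950 repeat summits and only 1141 TSS summits outside repeats, while the other 3 livers hold 1307 to 2671 of the latter.

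Sequences at some metabolic and stress genes with summits in both livers of a single state are shown first, since they are referred to throughout. These sequences are a selection and not a ranking by strength. Each is the reference sequence (GRCm38.p6, the mm10 assembly to which the study aligned its reads, from RefSeq) within 100 bp of the midpoint of the summits of the 2 livers that had one, written 5′ to 3′ on the strand of the gene and cut short where an exon began. Capitals mark matches, on either strand, to 12 motifs searched as fixed letters: the GC box of SP and KLF factors (GGGCGG), the CCAAT box of NF-Y (CCAAT), the E-box core of USF and CLOCK (CACGTG), the SREBP core (TCACNCCAC), ETS (CCGGAAGT), NRF1 (GCGCATGC), the cyclic AMP element of CREB (TGACGTCA), C/EBP (TTGCGCAA or TTGCATCA), HNF4A (CAAAGTCCA), forkhead (TGTTTAC or TGTTTGC), CTCF (AGGGGGC) and YY1 (AAGATGGC). None of these letter strings contains another, though a GC box and a CTCF string may overlap in part. Of all 31647 annotated TSS windows of 201 bases, 38.7% held the GC box, 26.9% the CCAAT box, 5.44% the E-box, 0.796% the SREBP core and 1.86% the cyclic AMP element. A match is a string of letters and not evidence that a factor bound.

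The first 6 are promoters with a summit in both refed livers and in neither fasted liver. Mvd, at chr8:122443451-122443651 (minus strand), and Msmo1, at chr8:64733620-64733820 (minus strand), belong to sterol synthesis, and Srebf2, at chr15:82146935-82147135 (plus strand), encodes SREBP-2 itself.
Mvd: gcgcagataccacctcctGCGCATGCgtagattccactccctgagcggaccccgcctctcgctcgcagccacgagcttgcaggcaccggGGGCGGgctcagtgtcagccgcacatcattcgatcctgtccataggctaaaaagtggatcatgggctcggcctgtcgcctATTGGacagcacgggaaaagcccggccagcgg
Msmo1: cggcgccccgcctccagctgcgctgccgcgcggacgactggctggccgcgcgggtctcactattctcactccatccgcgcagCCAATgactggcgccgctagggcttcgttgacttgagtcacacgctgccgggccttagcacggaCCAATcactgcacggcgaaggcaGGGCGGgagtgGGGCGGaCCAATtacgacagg
Srebf2: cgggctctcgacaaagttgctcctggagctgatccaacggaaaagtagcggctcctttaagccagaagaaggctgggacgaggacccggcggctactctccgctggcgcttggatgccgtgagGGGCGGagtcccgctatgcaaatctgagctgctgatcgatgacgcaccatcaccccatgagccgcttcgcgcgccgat
Hspa5, at chr2:34771733-34771933 (plus strand), and Ddit3, at chr10:127290593-127290792 (plus strand), are genes of the endoplasmic reticulum stress response, and Pdk4, at chr6:5496427-5496627 (minus strand), encodes a kinase that shuts off pyruvate dehydrogenase.
Hspa5: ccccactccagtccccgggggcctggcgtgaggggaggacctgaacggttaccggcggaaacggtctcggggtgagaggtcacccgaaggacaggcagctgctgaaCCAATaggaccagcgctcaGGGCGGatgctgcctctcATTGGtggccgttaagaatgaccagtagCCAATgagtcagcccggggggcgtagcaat
Ddit3: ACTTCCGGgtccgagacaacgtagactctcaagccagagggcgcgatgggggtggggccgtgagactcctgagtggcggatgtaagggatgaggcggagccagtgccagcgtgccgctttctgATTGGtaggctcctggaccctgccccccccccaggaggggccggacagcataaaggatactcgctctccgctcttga
Pdk4: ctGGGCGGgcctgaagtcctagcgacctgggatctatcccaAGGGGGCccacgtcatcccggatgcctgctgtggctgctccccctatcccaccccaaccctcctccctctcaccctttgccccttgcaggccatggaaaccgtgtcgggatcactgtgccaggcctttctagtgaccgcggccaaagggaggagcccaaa
The next pair had a summit in both fasted livers and in neither refed liver. Alb, at chr5:90460643-90460843 (plus strand), encodes serum albumin, and the Ldha window, at chr7:46846167-46846367 (plus strand), lies in the first part of the gene for lactate dehydrogenase A, outside its annotated exons.
Alb: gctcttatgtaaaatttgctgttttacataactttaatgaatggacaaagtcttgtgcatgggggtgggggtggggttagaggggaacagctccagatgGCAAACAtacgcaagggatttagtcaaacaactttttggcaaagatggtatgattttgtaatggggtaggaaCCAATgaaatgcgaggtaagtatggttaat
Ldha: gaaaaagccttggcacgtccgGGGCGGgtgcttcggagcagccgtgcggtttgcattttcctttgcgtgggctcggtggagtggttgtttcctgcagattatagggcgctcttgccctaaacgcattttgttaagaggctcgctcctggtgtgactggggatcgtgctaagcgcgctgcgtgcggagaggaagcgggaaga
The refed-only windows were GC-rich, from 61.7% (Srebf2) to 68.2% (Msmo1), and Alb, at 40.8%, was the poorest in GC. Msmo1 and Hspa5 each held 3 CCAAT boxes, in Msmo1 at −160, −96 and −55 bp from the TSS. Mvd held 1 CCAAT box, at −60, and 1 GC box, at −140. The Alb window held a CCAAT box at −56 and a forkhead string at −128. None of the 8 windows held CACGTG or the SREBP core as spelled here.

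The first question was how far the lists of 2 livers in the same state agree, compared with lists of different states. A summit was counted as shared when the other liver had one within 200 bp. At equal numbers (the 3119 strongest summits of each liver), 31.6% of the summits were shared between the 2 fasted livers and 43.4% between the 2 refed livers. Between states, the 4 pairs shared 32.6 to 42.7%. The mean within states exceeded the mean between states by 1.27 percentage points (exact permutation p = 1, two-sided; the smallest p that 4 livers in 2 pairs allow is 0.333). Fasted replicate 1 shared more summits with refed replicate 1 (42.7%) than with its fasted partner. Outside repeats, with 1682 summits a liver, the fasted pair shared 44.6%, the refed pair 52.5% and the pairs between states 38.9 to 48.9%, a gap of 3.62 points (exact permutation p = 0.333). Fasted replicate 2 then shared 48.8% and 48.9% of its summits with the refed livers and 44.6% with the other fasted liver. The fasted pair thus fell below the range of the pairs between states in the first set of lists and within it in the second.

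Sharing differed between kinds of position. Over the 6 pairs, 46.5 to 55.8% of TSS summits outside repeats were shared, as means of the 2 directions. The shares were 34.8 to 43.7% for summits outside repeats further from a TSS and 17.9 to 21.7% for summits in repeats. These lists were not cut to equal numbers, and shares depend on list length. In repeats, fasted replicate 1 shared 31.9% of its 989 summits with fasted replicate 2, which shared 5.29% of its 5950. The refed pair had the highest share among TSS summits (55.8%) and among distal summits (43.7%), with an exact permutation p of the within-state gap of 0.333 and 0.667.

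**Figure D2:**
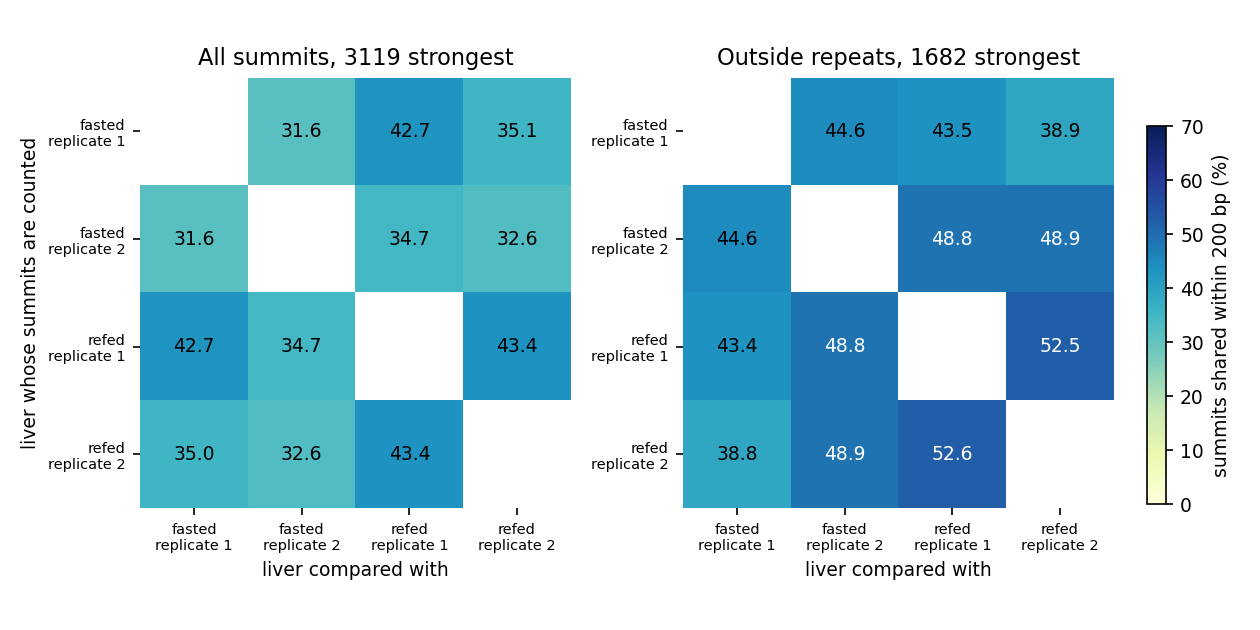
Percent of the summits of one liver (rows) with a summit of another (columns) within 200 bp, for the 3119 strongest summits of each liver (left) and the 1682 strongest outside repeats (right); colour gives the same percent from 0 to 70. The refed pair stands highest in both panels, at 43.4 and 52.5%. The fasted pair, at 31.6%, lies below all pairs between states on the left, and at 44.6% within their range on the right.

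The share of summits within 1000 bp of a TSS was 51.7% (95% Wilson interval 50.4 to 53.1) and 15.3% (14.5 to 16.1) in fasted livers against 43.5% (42.2 to 44.9) and 42.5% (40.8 to 44.2) in refed livers. The groups overlapped, the fasted livers standing on either side of the refed ones (exact permutation p = 1). Outside repeats the shares were 63.1% (61.7 to 64.6) and 67.8% (65.6 to 70.03) fasted, 73.6% (72.0 to 75.2) and 73.6% (71.5 to 75.5) refed. Without fasted replicate 2, the refed mean over all summits was lower than the remaining fasted value (difference −8.71 points). Outside repeats the 2 states did not overlap, with a difference of 8.11 points (exact permutation p = 0.333, the smallest possible); the intervals cover counting error only. TSS summits outside repeats sat mostly upstream of the start, 54.1% and 63.8% of them when fasted and 63.0% and 74.0% when refed, with medians at −33 and −95 and at −82 and −103 bp from the TSS.

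Of 26180 annotated genes, 3147 (12.02%) and 1436 (5.49%) had a summit within 1000 bp of a TSS in fasted livers against 2602 (9.94%) and 1633 (6.24%) in refed livers. A total of 4300 genes had one in any liver. Of these, 709 (2.71% of all annotated genes) had one in all 4 livers, and 1890 in a single liver. A TSS summit in both fasted livers and in neither refed liver was found for 133 genes, 0.508% of all annotated genes, and the reverse for 152 genes, 0.581%. These counts have to be read against the genes with a summit in 1 fasted and 1 refed liver, 726 in the 4 possible combinations, of which fasted replicate 1 with refed replicate 1 alone held 499. Fewer distinct promoters than genes were involved, since neighbouring genes that start back to back share a summit: 106 sets of summits for the fasted-only and 130 for the refed-only genes. Without fasted replicate 2, the genes called in the other fasted liver and neither refed liver numbered 1204, and those called in both refed livers and not in that fasted liver 236. With equal numbers of summits outside repeats the counts were 104 (0.397%) and 191 (0.73%), and with equal numbers of all summits 76 and 237. Of the 133 and 152 genes, 71 and 91 were again in the same class with equal numbers outside repeats.

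Genes called in 1 state had lower percentiles than genes called in all 4 livers. A summit was placed within its own liver by its percentile, from 0 for the weakest to 100 for the strongest. Genes called in all 4 livers had a median percentile of 80.7 and 87.0 when fasted and 83.3 and 77.1 when refed. The fasted-only genes had medians of 63.2 and 72.4, and the refed-only genes 67.2 and 56.4. Widening the window to 2500 bp gave a summit of the other state at 1 of the 133 fasted-only and 7 of the 152 refed-only genes.

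Genes for making cholesterol were called more often in both refed livers than in either fasted liver. Of 26 genes of cholesterol synthesis and SREBP-2 targets, 7 and 4 had a TSS summit when fasted and 12 and 11 when refed, or 26.9% and 15.4% against 46.2% and 42.3%, with 12.02, 5.49, 9.94 and 6.24% of all genes beside them. The counts did not overlap between states. Mvd, Msmo1 and Srebf2 were called in both refed and neither fasted liver (3 of 26, or 11.5%, where the whole annotation gave 0.581%). Idi1, Mvk and Ggps1 were called in all 4 livers. With equal numbers outside repeats the counts were 5 and 4 against 6 and 10, still without overlap. The nearest livers of the 2 states then had 5 and 6 genes. All annotated genes gave 5.52 and 5.39% when fasted and 6.25 and 5.91% when refed, also higher in both refed livers. None of the 26 was then refed-only. The difference between states was thus one of counts over the list and not of the same 3 genes under both sets of summits.

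Their summits, at the sequences printed above, were of middle or low rank. Mvd encodes mevalonate diphosphate decarboxylase, shares its summit with 9330133O14Rik, and its summits lay at −127 and −131 bp from the TSS, at percentiles 34.7 and 56.4 of the refed livers. Msmo1 encodes a sterol C4-methyl oxidase, and its summits, at −151 and −134, stood at percentiles 48.0 and 15.3. Srebf2 had summits at −293 and −174, at percentiles 20.9 and 77.1. All 3 genes had summits outside repeats. The nearest fasted summits lay 161703 and 161436 bp after the start of Mvd, in fasted replicates 1 and 2.

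Of the other members called, 6 were called in 3 or 4 livers and 5 in 1 or 2. Hmgcs1, HMG-CoA synthase, had summits at percentiles 69.2 in fasted replicate 1, 86.8 in refed replicate 1 and 45.2 in refed replicate 2, and none in fasted replicate 2. Cyp51, lanosterol demethylase, gave the same pattern at 86.4, 89.6 and 65.1, its 3 summits lying within 3 bp of each other. Fdft1, squalene synthase, was missing only in fasted replicate 1 and stood at 36.5 in fasted replicate 2 and at 58.2 and 65.1 in the refed livers. Idi1, isopentenyl diphosphate isomerase, went the other way in rank, at 85.9 and 94.4 when fasted and 58.2 and 75.1 when refed. Hmgcs1, Cyp51 and Fdft1 each lacked a call in 1 fasted liver. For Hmgcs1 and Cyp51 that liver was fasted replicate 2, which has the fewest summits outside repeats, and the part of that number in these calls was not tested. For Fdft1 it was fasted replicate 1, which has the most. Fdps was called in refed replicate 2 alone, Lss and Nsdhl in refed replicate 1 alone, and Dhcr7 and Hsd17b7 in 1 fasted and 1 refed liver.

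Genes of the endoplasmic reticulum and amino acid stress response also had more calls in both refed livers, by a small margin. Of 30 genes, 9 and 8 were called when fasted and 15 and 10 when refed, and 6 and 8 against 10 and 9 with equal numbers outside repeats. All annotated genes gave 12.02, 5.49, 9.94 and 6.24% with all summits (fasted replicates 1 and 2, then refed replicates 1 and 2). With equal numbers outside repeats they gave 5.52, 5.39, 6.25 and 5.91%, also higher in both refed livers, while the nearest livers of the 2 states differed by 1 gene of the list. Hspa5, the main chaperone of the endoplasmic reticulum, had summits at −184 and −329 and at percentiles 65.9 and 15.3 of the refed livers. Ddit3, the stress-induced factor CHOP, had them at −95 and −104 and at percentiles 42.5 and 31.2. Both lacked a fasted summit. Syvn1, the ubiquitin ligase HRD1, was the 1 fasted-only member, at percentiles 66.2 and 72.4. Eif2ak3, which encodes the stress sensor PERK, was called in all 4 livers and stood at 80.9 and 87.0 when fasted and 94.8 and 94.3 when refed, without overlap. Canx, Creb3l2 and Sec61b were the other members called throughout.

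**Figure D3:**
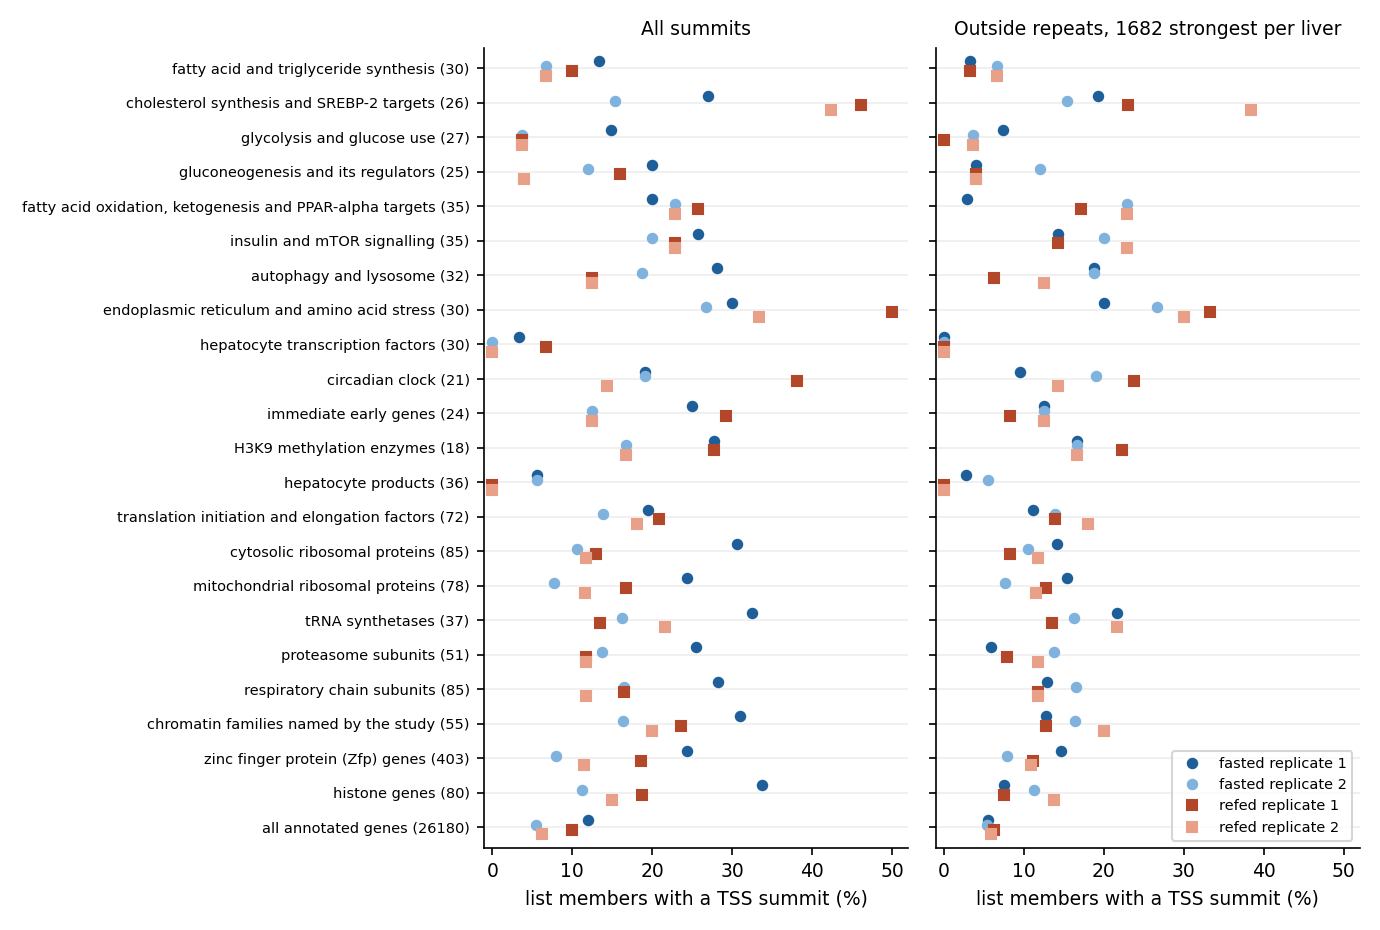
Percent of the members of each gene list (number of members in brackets) with a summit within 1000 bp of a TSS, in fasted (circles) and refed (squares) livers, from all summits (left) and from the 1682 strongest outside repeats of each liver (right), with all annotated genes in the bottom row. Cholesterol synthesis and endoplasmic reticulum stress lie higher in both refed livers in both panels, while hepatocyte products and autophagy lie higher in both fasted livers. All annotated genes also lie higher in both refed livers in the right panel.

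Fatty acid and triglyceride synthesis, the pathway the study set out from, had TSS summits about as often as all annotated genes in either state. Of 30 genes, 4 and 2 were called when fasted (13.3 and 6.67%) and 3 and 2 when refed (10 and 6.67%). All annotated genes gave 12.02 and 5.49% when fasted and 9.94 and 6.24% when refed. No member was called in both livers of 1 state and in neither of the other. Acss2, which makes acetyl-CoA from acetate, was called in all 4 livers at percentiles 22.6, 72.4, 34.7 and 89.3 (fasted replicates 1 and 2, then refed replicates 1 and 2), so the spread within a state exceeded that between states. Acly, ATP citrate lyase, had a summit in refed replicate 1 only, at −11 bp from the TSS and percentile 58.2. Dgat2, the last step of triglyceride synthesis, had summits at 90.3 and 93.0 in the fasted livers and at 56.4 in refed replicate 2. Fasn, Acaca, Usf1 and Jmjd1c had no TSS summit in any liver. The nearest summits to the TSS of Usf1, which encodes USF-1, lay at 25976 and −82248 bp when fasted and at 25976 and −82208 bp when refed.

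Gluconeogenesis and its regulators gave 5 and 3 of 25 genes when fasted (20 and 12%) and 4 and 1 when refed (16 and 4%). The share of all annotated genes was 12.02 and 5.49% when fasted and 9.94 and 6.24% when refed. G6pc, Pck1, Ppargc1a and Foxo1, the best known of them, had no TSS summit in any liver. Creb3l3, a liver factor that is cut free from the endoplasmic reticulum during fasting, was the only fasted-only member, and belongs to the list of fatty acid oxidation too: its summits stood at percentiles 66.4 and 72.4, at −304 and −296 bp from one of the starts inside the gene. Among 27 genes of glycolysis and glucose use, Ldha was fasted-only, with strong summits at percentiles 93.0 and 89.8 that lay 471 and 455 bp after the TSS. The counts of that list were 4 and 1 fasted (14.8 and 3.70%) and 1 and 1 refed (3.70% each).

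Fatty acid oxidation, ketogenesis and PPARα targets gave 7 and 8 of 35 genes when fasted (20 and 22.9%) and 9 and 8 when refed (25.7 and 22.9%). Beside them stood 12.02 and 5.49% and then 9.94 and 6.24% of all annotated genes. Acadm (medium-chain acyl-CoA dehydrogenase), Hadha and Hadhb (the trifunctional protein, whose genes share 1 promoter) and Etfdh (electron transfer to the respiratory chain) were called in all 4 livers. Acadm stood at percentiles 46.4 and 89.8 when fasted and 92.8 and 86.3 when refed, and Hadha at 47.5 and 89.8 and at 85.8 and 90.6. Pdk4, which is induced by fasting, was called in the refed livers only, at percentiles 65.9 and 45.2. In the study's RNA-seq of refed WT liver, Pdk4 stood at 0.540 TPM (from estimated counts divided by transcript length and scaled, mean of 2 pooled samples). Acaa1a, the peroxisomal thiolase, had 1 summit in each state (percentiles 14.9 in fasted replicate 2 and 65.1 in refed replicate 2), and Acot1 had none.

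Insulin and mTOR signalling genes were evenly called, 9 and 7 of 35 when fasted (25.7 and 20%) and 8 and 8 when refed (22.9% each). Gsk3a, Gsk3b, Akt1s1, Stk11 and Sesn3 were called in all 4 livers, among them Gsk3b at percentiles 87.6 and 93.0 and at 95.2 and 92.1. Rheb, the small GTPase that switches on mTOR complex 1, was refed-only, at percentiles 88.0 and 56.4. Among 32 genes of autophagy and the lysosome, 9 and 6 were called when fasted (28.1 and 18.8%) and 4 and 4 when refed (12.5% each). All annotated genes gave 12.02 and 5.49% and then 9.94 and 6.24%. With equal numbers outside repeats the counts were 6 and 6 against 2 and 4. Atg3, Atg5, Atg9a, Atg14 and Gabarapl1 were called in fasted replicate 1 alone, and Gabarap in fasted replicate 2 alone. Wipi1, Rb1cc1 and Nbr1 were called in all 4 livers. No member was called in both livers of 1 state and in neither of the other.

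Circadian clock genes (21) gave 4 and 4 calls when fasted and 8 and 3 when refed, with Nr1d2 and Dbp in all 4. Of 24 immediate early genes, 6 and 3 were called when fasted and 7 and 3 when refed, and Klf10 was refed-only. Of 18 enzymes that write or remove H3K9 methylation, 5 and 3 were called in each state. Kdm4b, a demethylase, was refed-only at percentiles 76.6 and 65.1. Its relative Kdm4d, which shares its summit with Cwc15, was called in all 4 livers, at percentiles 9.49 and 14.9 when fasted and 72.0 and 65.1 when refed. The fasted and refed values do not overlap, and the difference did not pass the test of ranks given further on. Kdm4a was also called in all 4 livers, with overlapping values.

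**Figure D4:**
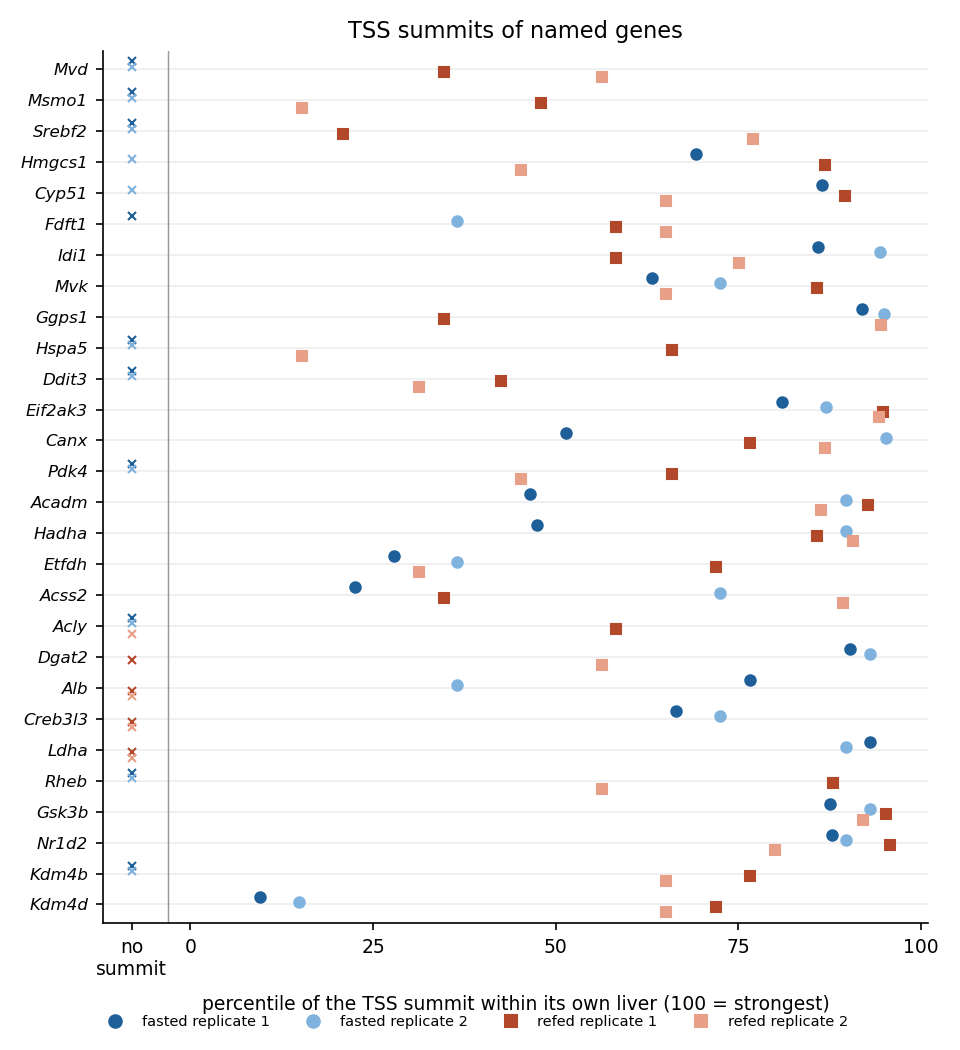
Percentile of the strongest TSS summit of each gene within its own liver (x axis, 100 for the strongest), for fasted (circles) and refed (squares) livers, with crosses at the left for livers without a TSS summit. Mvd, Msmo1, Srebf2, Hspa5, Ddit3, Pdk4, Rheb and Kdm4b have points for the refed livers only, and Alb, Creb3l3 and Ldha for the fasted livers only.

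The tissue was checked through its markers. Of 36 genes for hepatocyte products, 2 and 2 were called in the fasted livers (5.56% each) and none in the refed livers. These genes are nevertheless among the most transcribed of the organ. All annotated genes gave 12.02 and 5.49% when fasted and 9.94 and 6.24% when refed. With equal numbers outside repeats, 1 and 2 were called when fasted and none when refed, beside 5.52, 5.39, 6.25 and 5.91% of all genes. The difference between states in these small counts was not tested. Alb, at 70906 TPM in refed WT liver by RNA-seq, had summits in the fasted livers at −31 and −222 bp from the TSS, at percentiles 76.6 and 36.5. Hpx (hemopexin) was called in fasted replicate 2 at percentile 66.6 and Fga (fibrinogen alpha chain) in fasted replicate 1 at percentile 3.04, close to the weakest summits of that list. Of 30 hepatocyte transcription factors, 1 and 0 were called when fasted and 2 and 0 when refed. Markers of Kupffer cells (18 genes), endothelium (18), stellate cells (15), cholangiocytes (9), lymphocytes (19) and neutrophils or erythroid cells (16) were at 0 in every liver. Thus in the refed livers no gene of the list of hepatocyte products was called.

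Large families of genes used by most cells were called in all 4 livers. The 85 cytosolic ribosomal protein genes gave 26 and 9 calls when fasted (30.6 and 10.6%) and 11 and 10 when refed (12.9 and 11.8%). The 85 respiratory chain genes gave 24 and 14 (28.2 and 16.5%) and then 14 and 10 (16.5 and 11.8%). The 403 zinc finger (Zfp) genes gave 98 and 32 (24.3 and 7.94%) and then 75 and 46 (18.6 and 11.4%). The 72 translation initiation and elongation factors gave 14 and 10 (19.4 and 13.9%) and then 15 and 13 (20.8 and 18.1%). Over the whole annotation the shares were 12.02 and 5.49% and then 9.94 and 6.24%. In each of these 4 families the fasted livers stood further apart than the refed ones or on either side of them, as they did over all annotated genes. With equal numbers outside repeats the respiratory chain genes gave 11 and 14 when fasted and 10 and 10 when refed, without overlap. Of 51 proteasome subunits 13 and 7 were called when fasted (25.5 and 13.7%) and 6 and 6 when refed (11.8% each). With equal numbers outside repeats the proteasome counts were 3 and 7 against 4 and 6, so the states then overlapped. Mitochondrial ribosomal proteins (78 genes) had 3 fasted-only members, Mrpl18, Mrpl46 and Mrps11, of which the last 2 share 1 promoter, and 1 refed-only member, Mrpl17. Fasted-only members elsewhere were Atp5h, Atp5l and Ndufb3 of the respiratory chain, Rps29, Psmc6 of the proteasome, Smarcal1, H2bc6 and the zinc finger genes Zfp407, Zfp607b and Zfp939. H3f3a, Kmt5a, Zfp574 and Zfp36l1 were refed-only, and the Zfp36l1 summits lay in repeat-masked sequence.

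Outside the lists, the strongest fasted-only promoters, ranked by the lower of their 2 percentiles outside repeats, included Yju2 (a splicing factor, percentiles 90.6 and 93.0), Atp6v0c (a subunit of the proton pump of lysosomes, 87.2 and 91.8), Cope with Ddx49 (1 promoter, 89.0 and 91.8) and Mydgf (87.1 and 91.8). Trappc13, Shld3 and Trim23 shared a fasted-only promoter at 94.0 and 89.8. The strongest refed-only ones were Pabpn1 (nuclear poly(A) binding protein, 92.2 and 81.2), Stpg2 (88.0 and 81.2), Pkn2 (81.3 and 78.3), Fzr1 (an activator of the anaphase-promoting complex, 93.3 and 77.1) and Mmd (80.4 and 72.3), followed by Surf4 with Stkld1, and Cish. Cish encodes a suppressor of cytokine signalling, and its summits stood at 72.0 and 86.8, 32 and 12 bp after the TSS.

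The 5 strongest promoters called in all 4 livers ranked high in both states. Lrpprc, which stabilises mitochondrial mRNA, stood at percentiles 95.8 and 96.7 when fasted and 96.8 and 96.9 when refed, its summits within 20 bp of one another. Zfp317 stood at 98.2 and 95.5 and at 97.8 and 94.7. Gm20594, at 99.6 or 99.7 in every liver, shares sequence with the mitochondrial genome. Mir101c and Tas2r134, which complete the 5 highest, have summits in repeats.

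Whether a promoter called in all 4 livers changed in rank was tested with limma on the 709 such genes, ranked within each liver from 0 to 100. None passed an adjusted p of 0.05 (percent called 0), and 50 had an unadjusted p below it (7.05%); normal scores of the ranks called none either, with 69 below. The ranks did not overlap between states for 151 genes with higher and 133 with lower ranks after refeeding. Camsap1, which binds the minus ends of microtubules, had ranks of 3.74 and 1.90 when fasted and 82.2 and 78.3 when refed. The difference was 77.5 ± 26.6 (SE, limma adjusted p = 0.588). Each SE here comes from a variance pooled over the 709 genes along a trend with mean rank. It does not measure the spread of the single gene. Eif5a, a translation elongation factor, had 11.5 and 7.55 against 95.3 and 77.3, a difference of 76.8 ± 28.6. Qdpr (dihydropteridine reductase) and the shared promoter of Casc1 and Etfrf1 completed the 5 smallest p-values among higher ranks. The shared promoter of Sec61b, a subunit of the channel into the endoplasmic reticulum, and Alg2 had ranks of 99.2 and 96.3 against 76.7 and 39.6, a difference of −39.6 ± 14.8. Calm3 (calmodulin) and the shared promoter of Eloc and D030040B21Rik were the other genes with the smallest p-values among lower ranks. All of these had the same adjusted p.

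Across the 709 promoters, the correlation of ranks was 0.48 between the fasted livers, 0.45 between the refed livers and 0.29 to 0.48 between states, a description over genes that share libraries. The median difference over all promoters tested was −0.88, with 340 higher and 368 lower. Among listed genes, all 5 of insulin and mTOR signalling and all 4 of fatty acid oxidation stood higher after refeeding, at median differences of 9.84 and 34.1, and 12 of 15 Zfp genes stood lower, at −7.37. Hadha and Hadhb share 1 promoter, and Zfp758 and Zfp944 had the same ranks in every liver, so neither pair is 2 separate measurements. Of the 24 genes in these lists, none had an unadjusted p below 0.05. Eif2ak3 (43.6 ± 20.6), Eif5a, Kdm4d (28.0 ± 13.4), Sec61b and Setd3 (37.6 ± 15.6) did, each with an adjusted p of 0.588 to 0.595.

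The same test on the 836 regions that held a summit of all 4 livers within 200 bp also called none (percent called 0), with 52 (6.22%) at an unadjusted p below 0.05 and 52 by normal scores. The smallest adjusted p, 0.594, belonged to a repeat region at chr12:93577118-93577127, 132295 bp from the nearest TSS, with ranks of 95.0 and 90.97 when fasted and 81.3 and 70.6 when refed, and to a region at chr3:5860482-5860505, 284234 bp from a TSS, with 93.5 and 90.3 against 85.2 and 81.9. The regions with the smallest p-values among higher ranks lay near the starts of Camsap1, Rnf5, Eif5a and Fdxr, and 22478 bp from that of Ccne1. The correlation of ranks was 0.72 between the fasted livers, 0.69 between the refed livers and 0.58 to 0.73 between states.

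The classes of promoters differed in base composition. The GC content within 250 bp of the TSS had a median of 59.9% (quartiles 55.5 to 64.9) for the 133 fasted-only genes, 68.7% (63.0 to 72.5) for the 152 refed-only genes, 63.1% (58.9 to 68.1) for the 709 genes called in all 4 livers and 55.7% (47.5 to 64.5) for the 21880 genes with no TSS summit. With equal numbers outside repeats the first 3 medians were 59.9, 68.5 and 63.3%. In single livers, TSS summits outside repeats had a median GC of 60.7 and 60.2% when fasted and 64.2 and 61.7% when refed. Whether the GC content of the libraries as a whole differed could not be measured from summits and was not tested.

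The GC box was held by 59.4% of fasted-only, 75.7% of refed-only and 64.9% of all-4 genes within 100 bp of a TSS, against 36.8% of the genes with no summit. The CCAAT box was held by 34.6%, 47.4%, 42.9% and 28.6%. At TSS summits outside repeats themselves, the GC box was within 100 bp of 45.3 and 48.8% of summits when fasted and 60.3 and 62.0% when refed, and the CCAAT box of 26.8 and 34.6% and of 34.9 and 43.2%. The fasted and refed livers did not overlap for either motif, although fasted replicate 2 and refed replicate 1 lay close together for the CCAAT box. The E-box core CACGTG, the letters that USF-1 recognises, was within 100 bp of 5.09 and 5.43% of fasted and 5.86 and 5.81% of refed TSS summits, where all TSS windows gave 5.44%. By class it was held by 8.27% of fasted-only, 11.2% of refed-only and 7.33% of all-4 genes and by 5.82% of the genes with no summit. The first 2 values turned to 10.5 and 8.02% with equal numbers of all summits, so their order depended on the summits used.

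Several other motifs were held more often by fasted-only than by refed-only genes, among them the NRF1 string (6.77 against 3.29%), the forkhead string (3.76 against 1.32%), the YY1 string (6.02 against 4.61%) and the CTCF string (13.5 against 12.5%). Genes with no summit held them in 2.39, 5.22, 2.55 and 9.33%, so the forkhead string was rarer in both classes than in those genes. The order turned for YY1 with equal numbers of all summits (3.95 against 4.22%). For CTCF it turned with equal numbers outside repeats (15.4 against 15.7%). The ETS string was held by 17 of the 133 fasted-only genes (12.8%) and by 7 of the 152 refed-only genes (4.61%), and the cyclic AMP element by 11 (8.27%) and 4 (2.63%). The genes with no summit gave 3.68% and 1.82%. The TSS summits themselves did not show this order. The ETS string was within 100 bp of 4.04 and 3.42% of them when fasted and of 3.46 and 4.44% when refed, and the cyclic AMP element of 1.65 and 1.49% and of 1.75 and 1.99%, higher in the refed livers. Genes called in fasted replicate 1 alone held them in 10.6% and 4.30%, and those called in fasted replicate 2 alone in 8.85% and 1.77%, while genes called in refed replicate 1 or 2 alone gave 6.04 and 7.50% for ETS and 3.66 and 3.75% for the cyclic AMP element. Ldha, Rps29 and Ddx49 were among the 11 fasted-only genes with the cyclic AMP element, which is the target of CREB. Rn7s1 and Rps29, which start from 1 promoter, count as 2 of the 11.

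**Figure D5:**
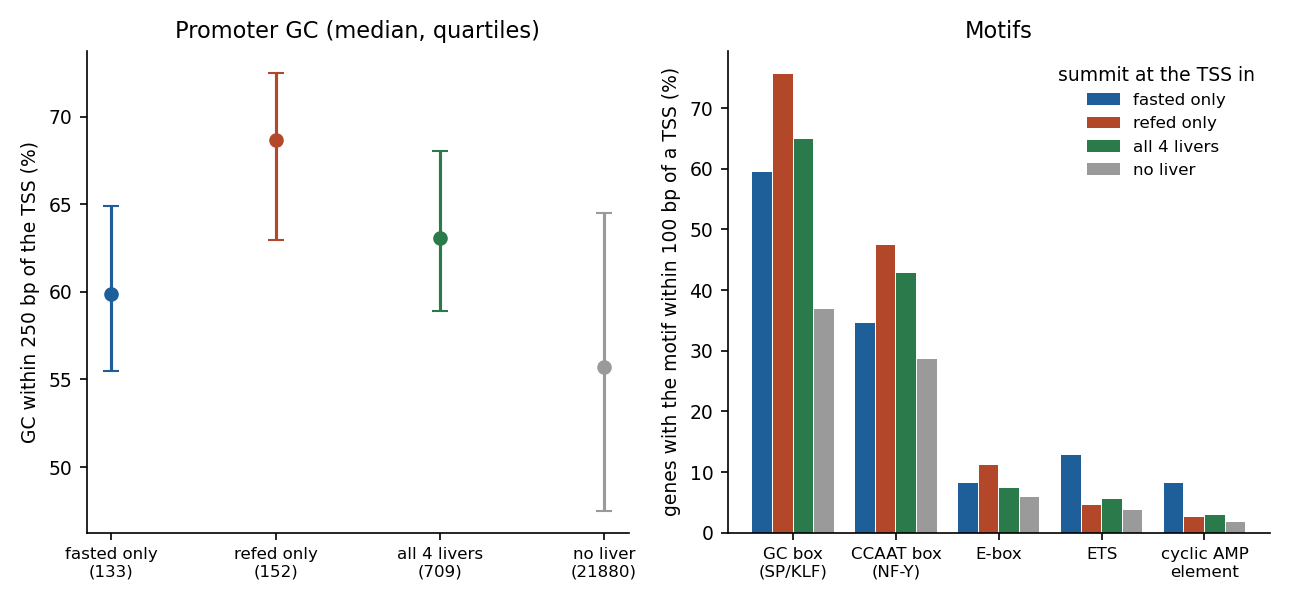
Left, median GC content and quartiles (bars) within 250 bp of the TSS of genes with a TSS summit in both fasted livers only, both refed livers only, all 4 livers or none, with the number of genes in brackets (axis from 46%, not from 0). Right, percent of the same genes with a motif within 100 bp of a TSS. Refed-only genes are highest in GC and in GC and CCAAT boxes, and fasted-only genes in ETS strings and cyclic AMP elements.

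Summits outside repeats and further than 1000 bp from a TSS numbered 1560 and 541 when fasted and 776 and 470 when refed. Between 41.5 and 45.7% of them lay inside a gene, and the median distance to the nearest TSS was 34309 and 35533 bp when fasted and 35751.5 and 27890.5 bp when refed. Their median GC was 46.3 to 47.8%. The forkhead string, typical of liver enhancers bound by FOXA, was within 100 bp of 12.6 and 8.13% of distal summits when fasted and 9.92 and 13.0% when refed, against 2.81 to 4.04% of TSS summits, so it set distal from TSS summits apart in every liver and did not order the states. Merged over livers, 2224 such regions were found, of which 151 held all 4 livers, 86 both fasted livers only, 41 both refed livers only and 1591 a single liver.

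Many of the distal summits carried sequence that is present in many copies although it was not masked. The kinds counted were a run of 25 bases of the mitochondrial genome, 3 tandem copies of CCCTAA (the repeat of telomeres), or a window in which at least 70% of the bases recur at a fixed shift of 2 to 60 bases. Any of these was found at 125 of 1560 (8.01%) and 163 of 541 (30.1%) distal summits in the fasted and at 148 of 776 (19.1%) and 113 of 470 (24.04%) in the refed livers, against 2 to 5 of the TSS summits of a liver. A pair of the strongest refed-only regions is shown, of which 1 is of this kind. The second strongest refed-only region, at chr3:104762401-104762601 (plus strand, intergenic, nearest to Tafa3), is a tandem repeat with 8 GC boxes at regular spacing. The strongest refed-only region, at chr13:48545910-48546110 (plus strand, intergenic, at −7748 bp from the start of Mirlet7a-1, the first of a cluster of let-7 microRNAs), is a GC-rich sequence with 3 GC boxes, the SREBP core and the CTCF string. Capitals again mark the motifs listed above.
Refed-only, near Mirlet7a-1: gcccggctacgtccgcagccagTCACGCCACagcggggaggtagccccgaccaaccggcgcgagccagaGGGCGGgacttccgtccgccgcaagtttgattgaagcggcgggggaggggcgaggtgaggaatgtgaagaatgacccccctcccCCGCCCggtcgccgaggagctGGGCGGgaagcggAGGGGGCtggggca
Refed-only, near Tafa3: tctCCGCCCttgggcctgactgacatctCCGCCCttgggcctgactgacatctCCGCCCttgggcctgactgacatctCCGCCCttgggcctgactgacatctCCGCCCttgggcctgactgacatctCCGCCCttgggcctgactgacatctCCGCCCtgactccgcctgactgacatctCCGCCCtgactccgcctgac
The region near Mirlet7a-1 stood at percentiles 83.3 and 79.7 of the refed livers, and that near Tafa3 at 76.6 and 86.8. Fasted-only regions in introns of Mgam and Intu and between genes near Tle1 and Rps6ka1 stood at percentiles of 72.1 to 89.8 over the 4 regions and both livers. The Intu region was a tandem repeat by the measure above (71.5%). A further fasted-only region, between genes near Aadacl2fm1, stood at 83.3 and 93.0 and held the telomere repeat. The remaining refed-only ones were near Rn4.5s, in an exon of P2rx3 and in an intron of Foxk1. The strongest distal regions in all 4 livers, at percentiles of at least 99.8, lay near Eea1, 1700019M22Rik, 4933402J10Rik and Ccnh and matched the mitochondrial genome, and the next, in an intron of Chl1, did not.

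The other assays of the series were set beside the promoter classes. In RNA-seq of 2 pooled samples of refed WT liver, the median level was 8.76 TPM (quartiles 2.57 to 38.5) for fasted-only genes, 11.3 (5.16 to 29.0) for refed-only genes, 9.67 (3.31 to 25.4) for genes called in all 4 livers and 3.42 (0.430 to 16.8) for genes with no TSS summit. The quartile ranges of the first 3 classes overlapped, and RNA of fasted liver was not measured. H3K9me2, the mark that JMJD1C removes, had a ChIP summit within 1000 bp of a TSS in 72.2%, 72.4% and 71.8% of the fasted-only, refed-only and all-4 genes in fasted replicate 1 of that assay, in 98.5%, 96.1% and 96.6% in fasted replicate 2, and in 85.7%, 87.5% and 84.5% in refed replicate 2. Refed replicate 1 of that assay had such summits at 0.987% of the all-4 genes, 0.752% of the fasted-only genes and 0% of the refed-only genes. Genes with no ATAC summit gave 21.3, 32.4, 0.183 and 25.9%, so the 3 classes with ATAC summits held H3K9me2 summits more often than genes without in fasted replicates 1 and 2 and refed replicate 2. In refed replicate 1 of that assay every class stood at 0.987% or less, so the classes cannot be ordered there. These shares were not tested.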

How the data were processed

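ATAC-seq was made from nuclei of 4 WT livers (Nextera, paired reads of 50 bp). Per the labels and the methods of the study, the authors used BWA for alignment to mm10, and MACS2 2.1.1 for peaks, liver by liver (q-value 0.05, fold enrichment 2.0). The deposited score of a summit is −log10 of its q-value. It grows with depth, so scores were compared only as ranks within a liver, and read depth was not analysed here. The deposited RNA values are estimated counts per transcript, made by the authors with Partek, which were divided by transcript length and expressed as TPM. A file with the authors' own comparison of knockout and WT RNA (counts, p-values, fold changes) was not used. Per the labels, H3K9me2 summits carry the same −log10 score.

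Genes were those with curated RefSeq transcripts in GRCm38.p6 (31647 starts of 26180 genes). Ranks of promoters and regions called in all 4 livers were fitted with limma 3.58.1 (R 4.3.3, eBayes with trend, Benjamini-Hochberg over all tested), and single values with exact permutation tests (SciPy 1.17.1). Scripts were tested on simulated data. The members and lists were chosen with earlier results of these data known. Genes were named if they were list members called in both livers of 1 state only or in all 4, genes of the study's browser views, the 5 smallest p-values in each direction, the 10 strongest state-only promoters outside the lists and 5 state-only distal regions in each state, or the 5 strongest promoters in all 4 livers; some that meet this rule are not reported here. Other cholesterol and metabolic list members, Setd3, and genes given as motif examples were chosen after their values were seen. Alternatives were other summit sets, windows, rank scales, a replicate block and leaving out each liver.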

Additional observations from a re-analysis of the deposited data

How the results depend on the processing

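The number of promoters called as changed in rank was 0 in limma under all alternatives run. Between 22 and 69 had an unadjusted p below 0.05, and the smallest adjusted p was 0.0621 to 0.842. For shared regions the number called was 0 to 1 when each liver was left out in turn. These fits tested 906 to 1092 regions, those that held a summit of all remaining livers, and not the 836. The 1 call was a region lower after refeeding, without refed replicate 1 (906 tested). Replicate numbers were shared between states only as numbers (the difference of replicate 1 and 2 correlated between states at 0.0956 over promoters and 0.146 over regions). With the replicate number as a block, 0 promoters and 6 regions were called, 3 in each direction. The cause was not tested. The lower rank of Calm3 (−24.3) ranged from −47.0 without refed replicate 1 to 0.633 without refed replicate 2, where it reversed. Summit sharing within minus between states turned to −0.287 points with full lists. The refed minus fasted share of summits at a TSS ranged from −8.71 points, without fasted replicate 2, to 27.7, without fasted replicate 1. Fasted-only promoters numbered 76 with equal numbers of summits and 54 with scores of at least 5, and refed-only promoters 237 with equal numbers. Leaving out 1 liver gave 193 to 1204 fasted-only and 236 to 698 refed-only promoters, a liver fewer making the class easier to enter. The lists with more members called in both refed livers numbered 4 with equal numbers, against 2. Read depth was unknown, so an absent summit sets no limit on accessibility.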
